A study of Homo sapiens with 6 samples.

Results

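The genes described here are 34 genes of homologous recombination, the Fanconi anemia pathway and the damage signalling that calls on them. They are the rows of the deposited table whose Ensembl identifiers carry these symbols in the GENCODE annotation, 34 of 58884 genes, and each symbol matched 1 row. They were measured by RNA-seq in DLD1 cells, a colorectal cancer cell line with a helical domain mutation in PIK3CA. The question the study put to these libraries was which genes change when p85β, the regulatory subunit of phosphoinositide 3-kinase encoded by PIK3R2, can no longer enter the nucleus. Parental DLD1 cells (3 libraries) were compared with p85β KR-AA cells (3 libraries), in which the changes K477A and R478A were knocked into the endogenous gene. Both groups were cultured cells without any further treatment in the labels, and both carry the PIK3CA mutation. The study derived more than 1 homozygous knock-in clone, and the labels do not say which clone gave which library, so p-values measure the spread between these libraries only, which may be technical. The source names of p85β KR-AA replicates 2 and 3 read R479A and R480A where their titles and genotypes read R478A.

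Each library held between 20301396 and 26712816 counts, so that 1 count corresponded to between 0.0273 and 0.0728 CPM (counts scaled to the TMM-normalized library size). Of 20 colon epithelial markers, 17 were above 1 CPM in every parental library and CDX1 was near 0 in both groups. The summed level of these markers was 59159 to 81381 CPM in parental cells and 9514 to 11108 CPM in p85β KR-AA cells. KRT8, KRT18 and KRT19 made up most of it, at mean levels of 37381, 18441 and 11444 CPM in parental cells. They were at 4454, 2537 and 1739 CPM in p85β KR-AA cells. Of 19 tested markers 10 were down-regulated and 4, CDH1, CDH17, CEACAM5 and CEACAM6, were up-regulated. The summed level of 16 mesenchymal markers was 59.7 to 90.9 CPM across the parental replicates and 6435 to 7348 CPM across the mutant replicates. Most of it was COL6A1 in parental cells (mean 65.2 CPM) and FN1 and VIM in p85β KR-AA cells (means 4992 and 1772 CPM). Of 12 tested markers 9 were up-regulated, and COL1A2, THY1, SPARC and TWIST1 were near 0. Of 10 lymphoid and blood markers, 2 had enough counts to be tested and neither changed. The part of this shift in the results below was not tested, and in bulk RNA fewer cells expressing a gene and less RNA per cell cannot be told apart.

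Homologous recombination repairs DNA breaks by copying the sister chromatid. The MRE11-RAD50-NBN complex senses the broken end and, with RBBP8, trims it to single-stranded DNA, BRCA1, PALB2 and BRCA2 prepare that strand to find its homologous copy, and the strand exchange genes assist the search. The Fanconi pathway recognises crosslinks between DNA strands that block replication, and its core complex attaches ubiquitin to FANCD2 and FANCI, which bring in nucleases and the recombination machinery. Germline loss of several of these genes predisposes to cancer or causes Fanconi anemia, and ATM and ATR are the kinases that signal breaks and stalled forks.

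All 34 genes had enough counts to be tested. In p85β KR-AA cells 16 of them (47.1%) were up-regulated and 3 were down-regulated, where a call needed an adjusted p under 0.01 in edgeR's quasi-likelihood test and a change of 3-fold or more. The background over all 16059 tested genes was 28.6% for up-regulation and 17.6% for down-regulation. The median log2 fold change of the 34 genes was 1.16, against 0.32 over all tested genes, and 25 of the 34 were higher in p85β KR-AA cells. At an adjusted p under 0.01 with any fold change, 19 were higher and 6 lower (41.6% and 32.7% of all tested genes). The 2 groups of libraries did not overlap for 22 genes with p85β KR-AA above and 6 genes with p85β KR-AA below, and they overlapped for 6 (47.0% and 36.5% of all tested genes did not overlap in these directions). With scaling by library totals in place of TMM, 21 of the 34 were up-regulated and 1, FANCG, was down-regulated. Of all tested genes 43.9% were then up-regulated and 6.06% down-regulated. This scaling shifted the median of all genes from 0.32 to 1.241. The share of up-regulated among all called genes went from 61.9% to 87.9%.

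**Figure D1:**
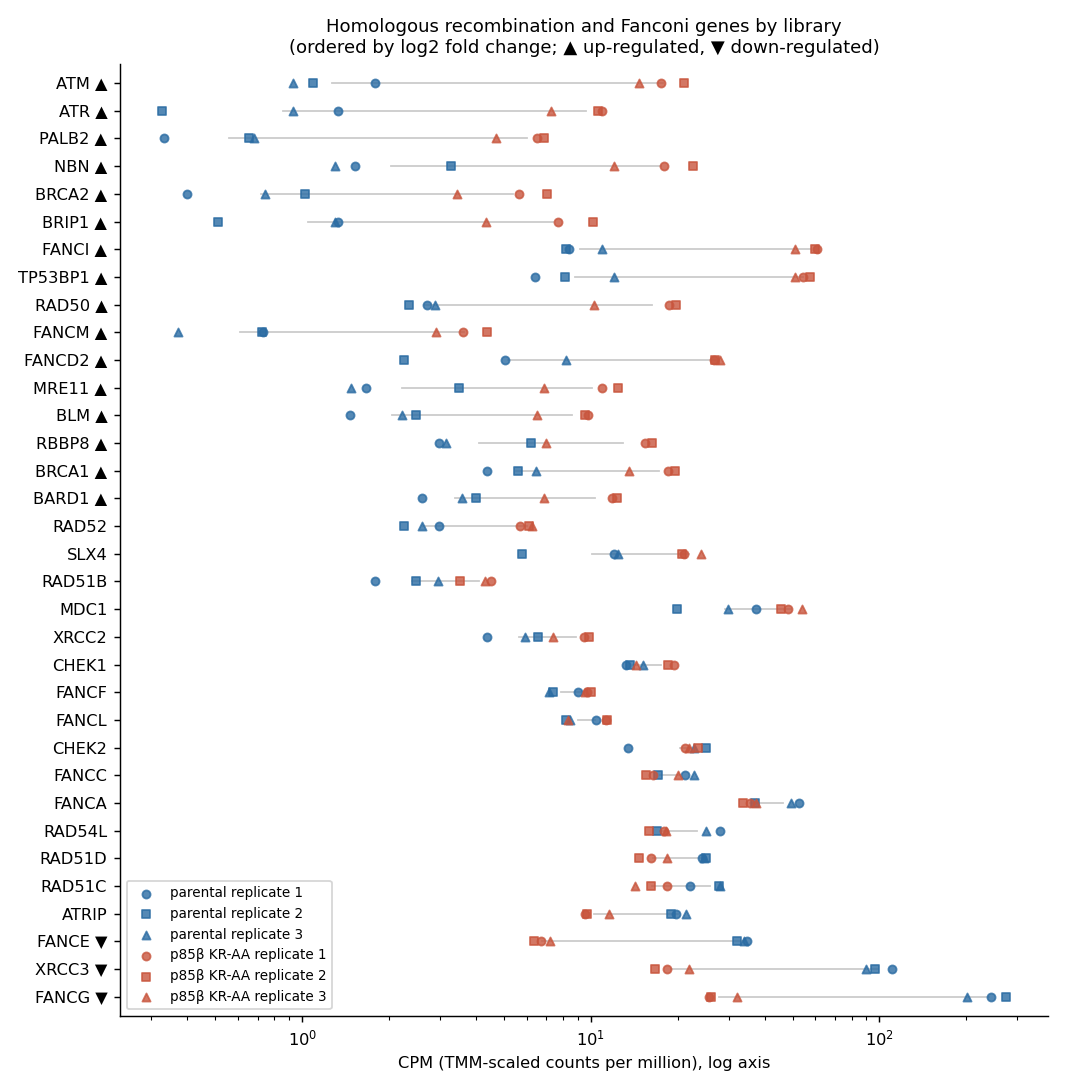
CPM of each of the 34 genes in the 6 libraries on a log axis, blue for parental and red for p85β KR-AA, one marker shape per replicate and a grey line between the group means, with genes ordered by log2 fold change. ATM at the top went from at most 1.79 to at least 14.7 CPM, and FANCG at the bottom from at least 201 to at most 32.0 CPM.

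Of the 5 damage signalling genes, ATM and ATR were up-regulated, and CHEK1, CHEK2 and ATRIP were not past the thresholds. ATM, the kinase activated by DNA breaks, was at 1.79, 1.09 and 0.925 CPM in parental replicates 1 to 3 and at 17.6, 21.0 and 14.7 CPM in p85β KR-AA replicates 1 to 3. ATR, the kinase activated by single-stranded DNA at stalled forks, was at 1.33, 0.327 and 0.925 CPM in the parental libraries and 10.9, 10.6 and 7.25 CPM in the mutant ones. All 3 mutant libraries lay well above all 3 parental libraries for both kinases, and parental replicate 2 held the fewest ATR counts. The log2 fold change was 3.80 ± 0.27 (SE) for ATM (adjusted p = 5.3e-08) and 3.47 ± 0.36 for ATR (adjusted p = 1.6e-06), or 13.9-fold and 11.1-fold. ATRIP, which recruits ATR to coated single-stranded DNA, was at 19.8, 19.0 and 21.3 CPM in parental cells and 9.53, 9.70 and 11.5 CPM in p85β KR-AA cells. It was lower in every mutant library, with a log2 fold change of -0.97 ± 0.17 (adjusted p = 1.3e-04) that did not reach the fold threshold. With scaling by library totals the log2 fold change of ATRIP was -0.049 (adjusted p = 0.80). The effector kinase CHEK2 was at 13.4, 25.1 and 22.7 CPM across the parental replicates and 21.2, 23.6 and 21.8 CPM across the mutant replicates, and the groups overlapped. Its log2 fold change was 0.12 ± 0.21 and was -0.12 without parental replicate 1, the lowest library. CHEK1, the effector kinase of ATR, had a log2 fold change of 0.32 ± 0.17 with overlapping groups (adjusted p = 0.11).

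Break sensing and resection genes were higher in every mutant library. Of these 6 genes 5 were up-regulated and MDC1 was not past the fold threshold. NBN, the subunit that links the sensor complex to ATM, was at 1.53, 3.28 and 1.296 CPM in the parental libraries and 17.9, 22.6 and 12.1 CPM in the mutant ones. The groups did not overlap, with a log2 fold change of 3.12 ± 0.34 (adjusted p = 2.3e-06). The nuclease MRE11 (log2 fold change 2.21 ± 0.33) and the ATPase RAD50 (2.61 ± 0.27) of the same complex were also up-regulated. TP53BP1, which restrains resection, was at 6.39, 8.13 and 12.0 CPM in parental cells and 54.3, 57.6 and 51.0 CPM in p85β KR-AA cells. RBBP8, the resection cofactor also called CtIP, was at 2.99, 6.19 and 3.15 CPM across the parental replicates and 15.4, 16.3 and 6.996 CPM across the mutant replicates. The gap for TP53BP1 was wide in every pair of libraries, whereas for RBBP8 parental replicate 2 and p85β KR-AA replicate 3 came close. The log2 fold change was 2.61 ± 0.21 for TP53BP1 (adjusted p = 1.6e-07) and 1.66 ± 0.35 for RBBP8 (adjusted p = 7.1e-04). RBBP8 dropped under the fold threshold of 1.58 (log2) without parental replicate 1 or 3 or p85β KR-AA replicate 1 or 2, with values of 1.47, 1.47, 1.52 and 1.47. MDC1, the scaffold that binds phosphorylated histone H2AX, was at 37.4, 19.95 and 29.8 CPM in the parental libraries and 48.2, 45.5 and 54.0 CPM in the mutant ones. Parental replicate 2 was the lowest library, and the log2 fold change was 0.76 ± 0.20 (adjusted p = 3.6e-03).

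The 5 genes of the BRCA1-PALB2-BRCA2 axis were all up-regulated. PALB2, the bridge between BRCA1 and BRCA2 (chr16:23614481-23652642 in GRCh37, minus strand), was at 0.332, 0.655 and 0.679 CPM in parental cells and 6.49, 6.86 and 4.70 CPM in p85β KR-AA cells. BRCA2, which acts on the resected strand, was at 0.399, 1.02 and 0.740 CPM across the parental replicates and 5.62, 7.07 and 3.43 CPM across the mutant replicates. Both were near the limit of detection in the parental libraries, where 3 counts correspond to 0.185 to 0.218 CPM, and p85β KR-AA replicate 3 was the lowest mutant library for each. The log2 fold change was 3.43 ± 0.32 for PALB2 (adjusted p = 5.9e-07) and 2.90 ± 0.38 for BRCA2 (adjusted p = 1.2e-05). BRCA1, the ubiquitin ligase subunit that favours resection, was at 4.38, 5.61 and 6.48 CPM in the parental libraries and 18.5, 19.6 and 13.5 CPM in the mutant ones. Its obligate partner BARD1 was at 2.59, 4.01 and 3.58 CPM in parental cells and 11.8, 12.3 and 6.89 CPM in p85β KR-AA cells. Neither gene's groups overlapped. BRCA1 rose by 1.65 ± 0.22 and BARD1 by 1.61 ± 0.27 on the log2 scale, both just above the fold threshold. Both were under it without parental replicate 1 (1.499 and 1.44) or p85β KR-AA replicate 2 (1.55 and 1.48), and BARD1 also without p85β KR-AA replicate 1 (1.51) and with the replicate number as a block (1.58, just below the threshold). BRIP1, the helicase that binds BRCA1, had a log2 fold change of 2.80 ± 0.39 (adjusted p = 2.0e-05).

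The strand exchange genes did not rise as a group: of 7 genes, 1 was down-regulated and none was up-regulated, with a median log2 fold change of -0.44. XRCC3, which pairs with RAD51C (chr14:104163946-104181841 in GRCh37, minus strand), was at 110, 96.3 and 89.9 CPM across the parental replicates and 18.4, 16.6 and 21.9 CPM across the mutant replicates. Every mutant library was far below every parental library, with a log2 fold change of -2.38 ± 0.15 (adjusted p = 2.4e-08), or 5.21-fold lower. RAD51C was at 21.99, 27.7 and 27.9 CPM in the parental libraries and 18.3, 16.2 and 14.2 CPM in the mutant ones. These groups did not overlap either, but the log2 fold change of -0.67 ± 0.17 (adjusted p = 2.8e-03) was smaller than the fold threshold, and with scaling by library totals it was 0.25. RAD52, which anneals single strands, was at 2.99, 2.26 and 2.59 CPM in parental cells and 5.70, 6.09 and 6.27 CPM in p85β KR-AA cells. RAD51B, of the same protein family, was at 1.79, 2.48 and 2.96 CPM across the parental replicates and 4.50, 3.52 and 4.30 CPM across the mutant replicates. Both were higher in every mutant library, with log2 fold changes of 1.20 ± 0.22 for RAD52 (adjusted p = 2.2e-04) and 0.77 ± 0.25 for RAD51B (adjusted p = 0.014). RAD51D and XRCC2 had log2 fold changes of -0.58 ± 0.16 and 0.67 ± 0.22, and the motor protein RAD54L -0.44 ± 0.19, and with scaling by library totals RAD51D and RAD54L were at 0.34 and 0.48.

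Of the pair of genes that process joined DNA molecules, BLM was up-regulated and SLX4 was not. BLM, the helicase that dissolves Holliday junctions, was at 1.46, 2.48 and 2.22 CPM in the parental libraries and 9.74, 9.51 and 6.49 CPM in the mutant ones. SLX4, the scaffold for structure-specific nucleases, was at 12.0, 5.75 and 12.5 CPM in parental cells and 21.0, 20.6 and 24.0 CPM in p85β KR-AA cells. The groups were separate for both genes, and parental replicate 2 was the lowest library for SLX4. The log2 fold change was 2.06 ± 0.27 for BLM (adjusted p = 1.1e-05) and 1.11 ± 0.25 for SLX4 (adjusted p = 1.0e-03).

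The Fanconi core complex and its anchor held both directions. Of 7 genes, FANCM was up-regulated, FANCG and FANCE were down-regulated, and FANCA, FANCC, FANCF and FANCL were not past the thresholds. FANCG, a core subunit that binds FANCA (chr9:35073832-35080001 in GRCh37, minus strand), was at 244, 275 and 201 CPM across the parental replicates and 25.6, 26.0 and 32.0 CPM across the mutant replicates. FANCE, the core subunit that contacts FANCD2 (chr6:35420115-35434881 in GRCh37, plus strand), was at 34.7, 32.1 and 34.1 CPM in the parental libraries and 6.71, 6.34 and 7.21 CPM in the mutant ones. The libraries of each group lay close together for both genes, and the groups were far apart. FANCG fell by 3.11 ± 0.16 on the log2 scale (adjusted p = 6.6e-09), an 8.61-fold decrease. FANCE fell by 2.31 ± 0.16 (adjusted p = 3.8e-08), a 4.98-fold decrease. FANCM, the translocase that anchors the core complex on DNA, was at 0.731, 0.728 and 0.370 CPM in parental cells and 3.60, 4.35 and 2.91 CPM in p85β KR-AA cells. FANCF, an adaptor encoded by a single exon, was at 9.06, 7.36 and 7.14 CPM across the parental replicates and 9.66, 9.97 and 9.56 CPM across the mutant replicates. FANCM was separate by a wide margin and FANCF by a narrow one, with log2 fold changes of 2.58 ± 0.34 (adjusted p = 1.3e-05) and 0.31 ± 0.18 (adjusted p = 0.14). The values were -0.39 ± 0.16 for FANCA, -0.23 ± 0.18 for FANCC and 0.20 ± 0.20 for FANCL, the ubiquitin ligase subunit, and the groups overlapped for each. FANCA and FANCC were at 0.53 and 0.68 with scaling by library totals.

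The substrates of that ligase rose together. FANCD2 was at 5.05, 2.26 and 8.21 CPM in the parental libraries and 26.8, 26.9 and 27.9 CPM in the mutant ones. FANCI, its partner in the clamp, was at 8.41, 8.23 and 10.9 CPM in parental cells and 60.9, 60.0 and 50.9 CPM in p85β KR-AA cells. The mutant libraries agreed closely for both genes, and the parental libraries varied more for FANCD2. The log2 fold change was 2.38 ± 0.32 for FANCD2 (adjusted p = 1.5e-05) and 2.64 ± 0.17 for FANCI (adjusted p = 2.5e-08).

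RefSeq promoter windows (GRCh38.p14, 250 bases before to 50 after a gene's start) matched 32 of the 34 genes in 44 windows, all but NBN and FANCI. Of the motifs searched on both strands, TTCCCGC, the core letters of a site for E2F factors, which drive genes of the replication phase, was in 38.6% of these windows against 9.32% of the windows of tested genes. It was in 14 of the 32 genes (12.4% of all tested genes with a window), namely 5 of 14 up-regulated, 3 of 3 down-regulated and 6 of 15 other genes, so that it was found among genes of either direction. TTTGGCG, another form of the E2F core, was in none of these windows against 2.63%. CCAAT, the CCAAT box, was in 47.7% of the windows against 34.1%, and GGGCGG, the GC box, in 68.2% against 65.0%. ACTTCCG, an ETS core, was in 18.2% against 10.8%, and TTTGAA, the CHR element of cell cycle genes, in 9.09% against 10.6%. Over all RefSeq windows the shares were 6.55% for TTCCCGC, 34.6% for CCAAT, 44.95% for GGGCGG, 6.83% for ACTTCCG, 15.2% for TTTGAA and 1.92% for TTTGGCG. Matches of different motifs may overlap, and they are a description of letters, not of binding. The 250 bases before the start, 5′ to 3′ on the strand of the gene, are shown for a gene that fell (FANCG), for genes that rose (BLM and BRCA1) and for a gene that was not past the thresholds (FANCL), with TTCCCGC or its reverse complement GCGGGAA in capitals. The motif began 84, 74, 47 and 99 bases before the start, respectively.
FANCG, chr9:35079943-35080192, minus strand: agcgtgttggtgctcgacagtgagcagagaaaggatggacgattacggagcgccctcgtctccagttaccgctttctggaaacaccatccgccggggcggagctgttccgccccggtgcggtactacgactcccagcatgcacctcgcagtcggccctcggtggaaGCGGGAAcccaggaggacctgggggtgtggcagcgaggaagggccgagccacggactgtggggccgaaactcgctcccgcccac
BLM, chr15:90717096-90717345, plus strand: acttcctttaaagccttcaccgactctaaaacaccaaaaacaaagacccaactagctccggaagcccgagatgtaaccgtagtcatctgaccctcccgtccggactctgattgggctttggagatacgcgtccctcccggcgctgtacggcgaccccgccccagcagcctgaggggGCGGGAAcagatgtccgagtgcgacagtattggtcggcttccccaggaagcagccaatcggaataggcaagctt
BRCA1, chr17:43125365-43125614, minus strand: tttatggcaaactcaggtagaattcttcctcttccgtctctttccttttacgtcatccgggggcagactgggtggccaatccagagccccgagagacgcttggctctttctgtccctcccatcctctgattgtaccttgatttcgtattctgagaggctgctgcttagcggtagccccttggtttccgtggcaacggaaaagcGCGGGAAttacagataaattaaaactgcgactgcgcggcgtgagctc
FANCL, chr2:58241326-58241575, minus strand: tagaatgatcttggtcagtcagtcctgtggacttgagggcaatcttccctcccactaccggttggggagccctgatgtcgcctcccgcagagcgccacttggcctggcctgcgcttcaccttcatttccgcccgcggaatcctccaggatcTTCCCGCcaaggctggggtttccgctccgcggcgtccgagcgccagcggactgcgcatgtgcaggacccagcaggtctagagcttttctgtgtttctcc

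The direction of change went with gene length and base composition. Across the 34 genes the log2 fold change had a Spearman rho of 0.64 with the deposited length (Pearson r = 0.61 on log2 length) and of -0.70 with the GC content of the canonical transcript (r = -0.76). Over all tested genes rho was 0.45 with length and -0.58 with GC content. The points are genes of the same 6 libraries and are not independent replicates, and length and GC content were themselves related (rho = -0.35 over the 34 genes). The deposited length and that of the canonical transcript differed for some genes, as for MRE11 (2684 and 6841 bases), CHEK1 (1670 and 4128) and RAD51D (1528 and 9966). By the canonical length these genes are over 4000 bases. The up-regulated genes had lengths of 2684 to 12954 bases and a GC content of 36.2% to 45.7%. The down-regulated genes had lengths of 2539 to 2631 bases and a GC content of 57.7% to 62.8%. Of the 14 genes over 4000 bases with a GC content of at most 45%, 13 were up-regulated, all but XRCC2, where 70.4% of all tested genes of that kind were up-regulated and 0.394% were down-regulated. Of the 6 long genes with a higher GC content, TP53BP1 alone was up-regulated and none was down-regulated (33.6% and 7.09% of all such genes). Of the 7 genes of at most 4000 bases with a GC content of at most 45%, MRE11 and RBBP8 were up-regulated and none was down-regulated (37.2% and 3.13% of all such genes). Of the 7 short genes with a higher GC content, none was up-regulated and 3 were down-regulated (11.0% and 32.2% of all such genes). ATRIP and SLX4, both over 4000 bases with a GC content of 58.7% and 57.6%, were on either side of 0.

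**Figure D2:**
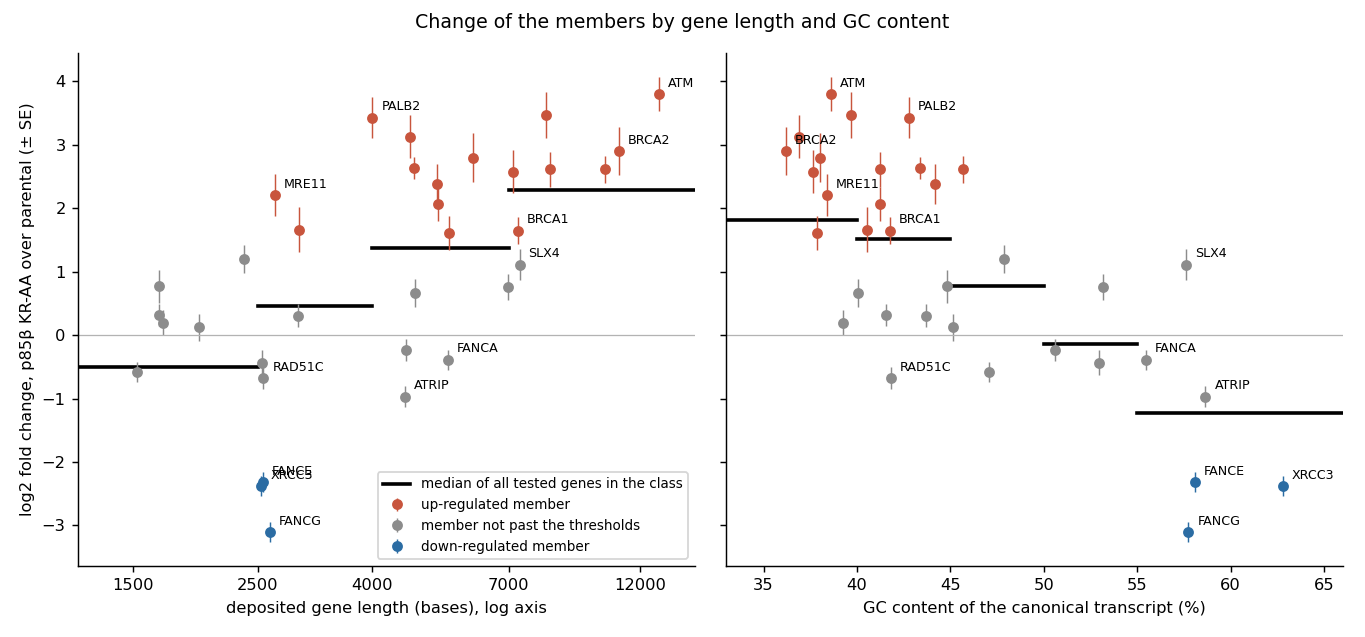
Log2 fold change (p85β KR-AA over parental, ± SE) of the 34 genes against deposited length (left, log axis) and GC content (right), red for up-regulated, blue for down-regulated and grey for the other genes, with black bars for the median of all tested genes in each class. The 16 up-regulated genes lie at 2684 bases or more and at a GC content of 45.7% or less, and the medians of all genes run from -0.50 at 1000 to 2500 bases to 2.29 over 7000 bases.

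With an offset for gene length fitted in each library over all genes, 3 of the 34 genes were up-regulated (MRE11, NBN and PALB2) and 5 were down-regulated (FANCG, XRCC3, FANCE, ATRIP and FANCA), against 18.7% of all tested genes in each direction, and rho with length was 0.0891. With offsets for both length and GC content, PALB2 was the only gene still up-regulated, with a log2 fold change of 1.76, and FANCG (-2.33) and RAD51C (-1.95) were down-regulated. Of all tested genes 13.8% and 10.2% were called in these directions with both offsets. The median of the 34 genes was then -0.16, against -0.05 over all tested genes. ATM was at 0.66, ATR at 0.71, NBN at 1.06, BRCA2 at -0.0783 and BRCA1 at -0.89 with both offsets. XRCC3 and FANCE stayed negative at -1.10 and -1.46. The offsets take out the relation of expression with length and GC content over all genes of a library, whatever its source, so that biological and technical relations of this kind cannot be told apart by them.

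A ratio within a library does not depend on the scaling between libraries. The summed counts of the 20 genes over 4000 bases were 2.81, 1.91 and 2.54 times those of the 6 genes of at most 2500 bases in parental replicates 1 to 3, and 5.24, 5.44 and 5.05 times in p85β KR-AA replicates 1 to 3. The mutant ratios were all above the parental ratios, by 1.13 on the log2 scale (two-sided exact permutation test, p = 0.1, the smallest p that 3 against 3 libraries allow). The same ratio over all genes of the table was higher by 1.90 on the log2 scale, also with the groups apart (exact permutation p = 0.1). The 3 down-regulated genes lie between these length classes. With the classes split at the median length of 4629 bases, which brings them into the short class, the difference was 2.72.

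Per kilobase of deposited length, the 34 genes were more alike in p85β KR-AA cells than in parental cells. The SD of log2 CPM per kilobase across the genes was 2.71, 2.71 and 2.68 in parental replicates 1 to 3 and 1.20, 1.12 and 1.39 in p85β KR-AA replicates 1 to 3. The highest level was 1470 to 2607 times the lowest in parental libraries and 20.7 to 39.0 times in p85β KR-AA libraries. Over the 14911 tested genes with a count in every library the same SD was 3.27 to 3.39 in parental and 2.48 to 2.53 in p85β KR-AA libraries. The groups did not overlap for any of these measures, and the exact permutation p for the SD of the 34 genes was 0.1, the smallest possible. FANCG had the highest level per kilobase of the 34 genes in parental cells and ranked 4 in p85β KR-AA cells. It held 34.6%, 39.97% and 30.4% of all counts of the 34 genes in parental replicates 1 to 3 and 4.18%, 4.19% and 5.70% in p85β KR-AA replicates 1 to 3. Their summed level was 660 to 704 CPM across the parental replicates and 561 to 621 CPM across the mutant replicates. Without FANCG it was 413 to 461 CPM and 529 to 595 CPM, so that the order of the groups turned on this gene. It also turned on the scaling, as the 34 genes with FANCG held 0.0465% to 0.0513% of all counts in parental and 0.0759% to 0.0874% in mutant libraries.

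**Figure D3:**
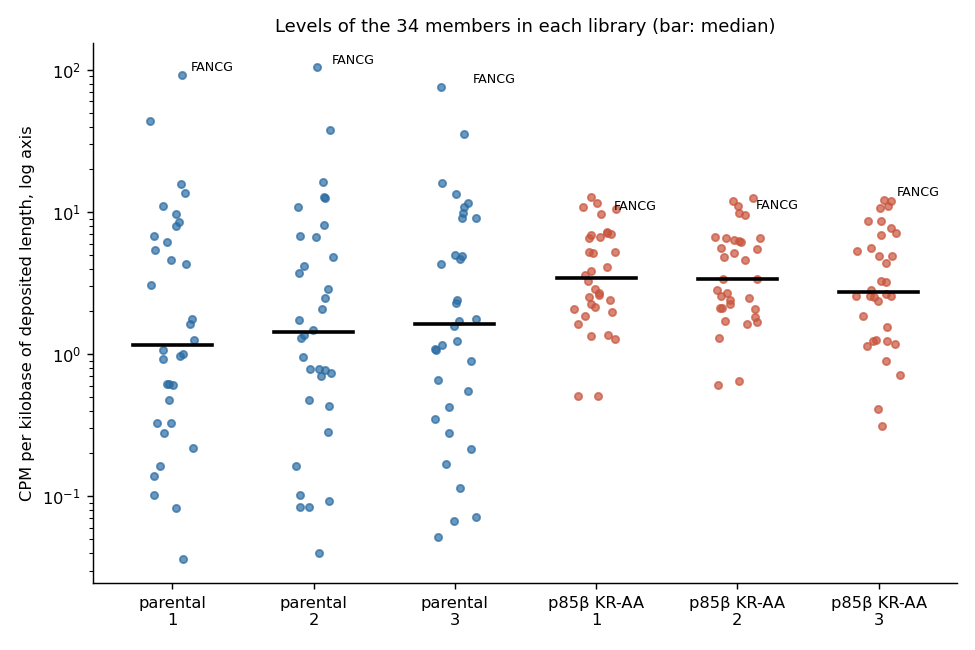
CPM per kilobase of deposited length of the 34 genes in each library on a log axis, blue for parental and red for p85β KR-AA, with a black bar at the median and FANCG named. The SD on the log2 scale is 2.68 to 2.71 in the parental and 1.12 to 1.39 in the p85β KR-AA libraries.

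The ratio of partners that work together separated the groups for some pairs and overlapped for others. Per kilobase, BRCA1 was at 1.05 to 1.36 times BARD1 in parental and 1.18 to 1.48 times in p85β KR-AA libraries, and these ranges overlapped. RAD50 over MRE11 (0.217 to 0.631 and 0.484 to 0.552) and FANCI over FANCD2 (1.46 to 4.01 and 2.01 to 2.502) overlapped too. NBN over MRE11 was 0.503 to 0.539 in parental cells and 0.937 to 1.05 in mutant cells. ATR was at 0.0097 to 0.0377 times the level of ATRIP in parental and at 0.353 to 0.642 times in p85β KR-AA libraries. By the deposited lengths the ratio of these pairs lay nearer to 1 in each mutant library. For NBN over MRE11 this depends on the deposited length of MRE11 (2684 bases) and does not hold with its canonical length (6841 bases). FANCG over FANCA was 8.42 to 15.3 in parental cells and 1.49 to 1.77 in mutant cells. FANCE over FANCC was 2.70 to 3.39 and 0.649 to 0.733, and XRCC3 over RAD51C was 3.24 to 5.06 and 1.01 to 1.56, in the same order. RAD51D over XRCC2 was 11.9 to 17.2 and 4.63 to 7.77. BRCA2 over PALB2 was 0.398 to 0.567 in parental cells and 0.266 to 0.376 in mutant cells, which is farther from 1.

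The libraries of the mutant also differed among themselves by base composition. p85β KR-AA replicate 3 was the lowest of the 3 mutant libraries in 19 of the 21 genes with a GC content of at most 45%, with a median level of 0.725 times the other two. It was the highest in 9 of the 9 genes with a GC content over 50%, with a median of 1.15 times. Across the 34 genes its log2 difference from the other two had a rho of 0.89 with GC content (0.63 over all tested genes), and the points share the same 3 libraries. For p85β KR-AA replicate 2 rho was -0.87, and for parental replicates 1 to 3 it was between -0.40 and 0.23. Without p85β KR-AA replicate 3, 16 of the 34 genes were up-regulated and 3 down-regulated, as with it (29.1% and 18.0% of all tested genes). Parental replicate 2 was the lowest parental library in 7 of the 9 genes with a GC content over 50%. Without it the counts were also 16 and 3 (27.6% and 17.3% of all tested genes).

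Other genes of these pathways, from lists set beside the 34, moved in both directions. Of 22 other homologous recombination genes 4 were up-regulated and 4 down-regulated, with a median log2 fold change of -0.34. The lowest were the nuclease subunit MUS81 (-1.88) and MND1 (-1.84). The highest were RAD54B (3.24) and the resection nuclease DNA2 (2.37). Of 18 other Fanconi and crosslink repair genes 5 were up-regulated and 5 down-regulated, with a median of 0.12, from CENPX (-3.23) and MAD2L2 (-2.87) to the nuclease subunit ERCC4 (2.70) and REV3L, the catalytic subunit of a translesion polymerase (3.29). Of 21 other damage signalling genes 9 were up-regulated and 3 down-regulated, with a median of 1.38, from the histone H2AX (-2.99) and BABAM1 (-2.76) to RIF1 (3.38) and the ATR activator TOPBP1 (3.45). Of 13 end joining genes 3 were up-regulated and 1 down-regulated, with a median of -0.12, from PAXX (-2.501) and XRCC6 (-0.88) to POLQ (2.87) and PRKDC (2.99). Of 21 proliferation and S phase markers 2 were up-regulated and 6 down-regulated, with a median of -0.42, from CDT1 (-2.69) and MCM5 (-2.63) to the long genes MKI67 (2.42) and TOP2A (3.14). The median of this last list was below that of all tested genes (0.32) while that of the 34 genes was above it, and the part of proliferation in the changes of the 34 genes was not tested.

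Counts of several of these genes are uncertain because other genes overlap them. For 16 of the 34 genes an overlapping gene had more than 10% of the gene's own mean count in at least 1 group. The sources used here do not state whether strand was used in counting. The mean counts below are not scaled between libraries, so a higher count in a group need not be a higher level. One count was 0.0617 to 0.0728 CPM in parental and 0.0273 to 0.0364 CPM in p85β KR-AA libraries. ATRIP shares its strand with TREX1, whose mean was 519 counts in the parental group and 320 in the mutant group. CHEK1 shares its strand with STT3A (1475 and 4121 counts in the same order). On the other strand, MDC1 overlaps TUBB (25499 and 30593 counts) and FANCI overlaps POLG (2189 and 1897). NBN overlaps DECR1 (242 and 596) and OSGIN2 (111 and 621) on the other strand. These neighbours had higher mean counts than the genes they overlap, in both groups. TP53BP1 overlaps TUBGCP4 on the other strand (174 and 817 counts), whose mean was above that of TP53BP1 in the parental group only. RAD50 overlaps a longer gene on the same strand (ENSG00000283782) that went from a mean of 2.25 to 324 counts, and reads in the shared exons cannot be assigned with certainty. BRCA1 overlaps NBR2 on the other strand (23.1 and 213 counts) and a gene on its own strand (ENSG00000267002, 19.9 and 204 counts). XRCC3 overlaps KLC1 on the other strand (1157 and 1965 counts). FANCG and FANCE had no such neighbour.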

How the data were processed

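RNA-seq libraries of DLD1 parental and p85β KR-AA cells (3 each) were grouped by genotype and replicate number in the labels. The authors deposited expected counts (estimated counts, not normalized) per Ensembl gene for the 6 libraries, and a gene length in another column. The submitters' processing notes name HISAT2 2.1.0, RSEM 1.3.1, DESeq2 1.24.0 and hg18 without roles, and the annotation behind the counts is not given in the sources used here. Expected counts were rounded to whole numbers, since the design had assumed whole counts.

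The groups were compared with the quasi-likelihood F test of edgeR 4.0.16 (R 4.3.3) after TMM scaling and filterByExpr (count 10, total 15), with Benjamini-Hochberg adjustment over 16059 tested genes. Calls needed an adjusted p under 0.01 and a change of 3-fold or more, as in the study's methods. The SE of a fold change was its log2 value divided by the root of F. Totals of 20301396 to 26712816 counts put 1 count at 0.0273 to 0.0728 CPM. Such limits cover counting error only. Symbols, GRCh37 positions and GC content (15833 tested genes) came from GENCODE release 44 lifted to GRCh37, and promoters from RefSeq (GRCh38.p14). Length and GC offsets were robust splines with 5 degrees of freedom per library.

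The genes and lists were chosen with earlier results of these data known. All 34 genes are named, and values in every library are given for ATM, BRCA1, BRCA2, the highest and lowest genes of each role group (2 of each in groups of 5 or more) and each down-regulated gene. Of the other pathway lists the 2 highest and 2 lowest are named, and 1 listed gene is not reported here. Marker lists checked the labelled cell type. Alternatives were DESeq2 1.42.0, library totals, no or a stricter filter, the replicate block, offsets, other thresholds, a fold tested against 3, and each library left out. The code was tested on simulated data. ChIP-seq data were not analysed here.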

Additional observations from a re-analysis of the deposited data

How the results depend on the processing

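No test of the 34 genes as a list was made, and 3 libraries per group, of clones the labels do not name, limit the precision. Parental levels of ATR, PALB2, BRCA2, BRIP1 and FANCM rested on few counts, and with at least 10 counts in every library 29 of the 34 genes were tested.

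Of the fold changes of the 34 genes, the alternatives left 561 in direction and side of the thresholds, moved 80 under the thresholds and 21 past them, and turned the sign of 47. With each library left out in turn, between 13 and 16 of the 34 genes were up-regulated, 3 were down-regulated, and CHEK2 ranged from -0.12 (without parental replicate 1) to 0.27. DESeq2 lost BRCA1, BARD1 and RBBP8 and gained none. Deviations of libraries with the same replicate number had correlations of -0.14, 0.12 and -0.04, so the numbers were not taken as pairs. With the replicate block, 15 of the 34 genes were up-regulated (BARD1 was lost) and 3 down-regulated (28.8% and 17.6% of all tested genes). edgeR's prior degrees of freedom were then infinite, and robust moderation gave the same counts.

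With scaling by library totals, 1 of the 34 genes was down-regulated, 7052 of all genes rose and 973 fell past the thresholds, the median of the 34 was 2.07, and RAD51C (0.25), RAD51D (0.34), RAD54L (0.48), FANCA (0.53) and FANCC (0.68) turned positive. With at least 10 counts in every library, 2898 of all genes were up-regulated and rho with length was 0.58, with fewer genes tested. With no fold threshold, 6 of the 34 and 5246 of all genes were lower. With the fold tested against 3, 2974 of all genes rose and 1779 fell, and 11 of the 34 genes were up-regulated, without BARD1, BLM, BRCA1, MRE11 and RBBP8. Length classes split at the median length gave a difference of 2.72.

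With the length offset, 3 of the 34 genes were up-regulated and 5 down-regulated, 2997 of all genes were up-regulated, the median was 0.48, rho with length 0.0891, and MDC1 (-1.02), BRCA1 (-0.21), XRCC2 (-0.51) and SLX4 (-0.72) turned negative. With the replicate block and the length offset, the counts were 3 and 5 of the 34 genes and 3006 of all genes up-regulated, the median was 0.48 and rho 0.0943, and MDC1, BRCA1, XRCC2 and SLX4 were at -0.99, -0.21, -0.498 and -0.68. With length and GC offsets, 1 of the 34 genes rose, 2185 of all genes rose and 1609 fell past the thresholds, the median was -0.16 and rho 0.29, and CHEK2 (-0.50), MDC1 (-0.21), BRCA1 (-0.89), BARD1 (-0.70), BRCA2 (-0.0783), BLM (-0.11), FANCF (-0.94), FANCM (-0.0352), CHEK1 (-0.51), RAD50 (-0.11), XRCC2 (-1.43) and FANCL (-0.76) were negative. With the replicate block and both offsets, 1 of the 34 genes rose, 2122 of all genes rose and 1588 fell past them, the median was -0.18 and rho 0.29, and the same genes in that order were at -0.48, -0.20, -0.89, -0.71, -0.0766, -0.12, -0.92, -0.0344, -0.51, -0.15, -1.43 and -0.74. A GC offset alone was chosen after seeing the data. With it, 4 of the 34 genes (ATM, ATR, PALB2 and SLX4) and 2674 of all genes were up-regulated. FANCG (-2.32), RAD51C (-2.29) and FANCL (-1.60) fell past the thresholds, as did 14.4% of all tested genes. FANCE (-1.48) and XRCC3 (-1.06) no longer passed them. The median was 0.0692 and rho with length 0.72. CHEK2 (-1.04), RBBP8 (-0.0766), BARD1 (-0.19), RAD51B (-0.43), FANCF (-1.09), CHEK1 (-1.33), XRCC2 (-1.07) and FANCL turned negative and FANCA (0.11) positive. Each offset takes out the relation with the property it was fitted on over all genes, not over the 34 genes, whose rho with GC content was -0.67 with the length offset. The cause of the other changes was not tested.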
